A study of Mus musculus with 4 samples.

Results

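The DNA replication and S-phase genes are 44 genes whose products license and fire replication origins, copy the template, supply deoxynucleotides and rebuild chromatin behind the fork. They were picked by name, with earlier results of these data known. All 44 were measured, by 74 of the 30457 features that carry a gene symbol, among 19909 genes in all. Of the 44, 25 had 1 feature and 19 had from 2 to 4. For 7 of them the arrays' annotation still used an older name, such as Ris2 for Cdt1, Cdc45l for Cdc45 and clone names for Gins1, Gins2 and Gins3.

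Each of 4 two-colour arrays compared cerebellar RNA of Smarca5 conditional knockout mice (cKO) with cerebellar RNA of wild-type mice. All mice were of strain C57Bl/6 and were taken at postnatal day 0 (P0), the day of birth. Smarca5 encodes Snf2h, an ATPase that slides nucleosomes. Dyes were swapped between arrays, with Cy5 on the cKO RNA of replicates 1 and 3 and on the wild-type RNA of replicates 2 and 4. There were 3 RNA samples per genotype, because replicates 1 and 4 shared a wild-type sample and replicates 3 and 4 a cKO sample. The labels name neither the tissue in which the gene was deleted nor the number of animals in an RNA sample. Each value below is a log2 ratio, cKO over wild type, after centring on the array median. That direction is likely but is not stated with the values, and a log base of 2 was taken. A ratio carries no level, so the labelled tissue could not be checked against its markers, and genes could not be ranked by abundance.

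At birth the cerebellum is about to enter its main phase of growth, in which granule cell progenitors of the external granular layer divide under Sonic hedgehog. Replication genes are used by every cell in S phase. They are transcribed together at the end of G1, when E2F factors are released from the retinoblastoma protein, and many carry E2F sites next to the transcription start. In a whole-tissue RNA sample their level therefore follows the share of cycling cells, and fewer such cells cannot be told apart from less RNA per cell.

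The promoters of the members were read for these letters. The E2F consensus was searched as TTTCCCGC, TTTGGCGC, TTTCGCGC or TTTGCCGC on both strands, in the 250 bases before the start of each gene in RefSeq (GRCm38.p6). Of the 37 members with an entry, 9 held it (24.3%). The share was 2.93% of the 15606 genes on the arrays with an entry, and 2.16% of all 27025 genes with one. The 9 members were Mcm5, Mcm6, Mcm7, Cdc6, Gins3, Rfc3, Pola1, Uhrf1 and Cdca7. The windows of 100 bases below belong to the 3 of them whose ratio lay below 0 on all 4 arrays, and to Mcm6, which had the most matches (3). They are written 5′ to 3′ on the strand of the gene, with the matched letters in capitals. The first run of capitals in Mcm6 is TTTGGCGC overlapping a match on the other strand, GCGCGAAA.
Mcm7, chr5:138171974-138172073, minus strand: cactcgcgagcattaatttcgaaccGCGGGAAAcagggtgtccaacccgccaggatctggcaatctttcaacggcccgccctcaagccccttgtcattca
Cdc6, chr11:98907988-98908087, plus strand: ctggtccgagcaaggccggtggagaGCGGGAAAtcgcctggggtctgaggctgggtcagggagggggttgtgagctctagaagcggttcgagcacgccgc
Pola1, chrX:93632219-93632318, minus strand: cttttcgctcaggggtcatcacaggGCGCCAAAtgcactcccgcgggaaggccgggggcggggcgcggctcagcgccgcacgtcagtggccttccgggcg
Mcm6, chr1:128359741-128359840, minus strand: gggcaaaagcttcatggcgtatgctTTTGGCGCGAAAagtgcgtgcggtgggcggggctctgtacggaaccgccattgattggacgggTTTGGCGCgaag
A match is a description of the letters and not evidence that a factor binds there. No promoter entry was used for Mcm4, Gins1, Gins2, Rfc2, Prim2, Pole and Ccne2.

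The arrays differed from each other and between features of a gene. The feature named Smarca5 lay at -0.36, -1.16, -1.43 and -0.75 on replicates 1 to 4, and a clone-named feature now assigned to Smarca5 lay at 0.01, 0.34, 0.10 and 0.47. Ratios of 2 features of the same gene, over the 6685 genes with more than 1, correlated between 0.017 and 0.054 on the 4 arrays (Pearson, across genes that are not independent). They had the same sign in 48.2% to 51.2% of these genes. Where the first feature was past a log2 ratio of 1 in size, the sign was the same in 48.9% to 52.8%. With so little likeness it is uncertain whether the annotation names the features correctly, and every value given here for a gene rests on those names. Between arrays the genes correlated from -0.09 to 0.05. Replicate 1 stood apart in 6 anterior Hox genes, which mark the hindbrain behind the cerebellum. Their median was 2.60 there and between -0.58 and -0.19 on the other arrays. Of the 8 Hox features 6 were past a log2 ratio of 1 on replicate 1, against 6.33% of all named features. Counts that changed without replicate 1 are given beside the count.

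No replication gene passed the test. Limma with Benjamini-Hochberg adjustment over 19909 genes called 0 of the 44, on a background of 0.0% of all genes, and the smallest adjusted p was 1. The number of members at an unadjusted limma p under 0.05 was 0 as well, where 0.779% of all genes had such a p on the lower side and 0.779% on the higher side. The lowest unadjusted p was 0.0916, for Mcm7. In the estimate the arrays that shared RNA were given a correlation of 0.5, which makes the fitted ratio the mean of replicates 1 to 3. That value was assumed. The observed correlation over all genes was 0.01 for replicates 1 and 4 and -0.04 for replicates 3 and 4. Pairs that shared no RNA ran from -0.09 to 0.05. With the 4 arrays taken as independent, limma called 0 members and 0 genes, and 0 members had an unadjusted p under 0.05 (backgrounds of 2.39% lower and 2.61% higher). Precision is limited by having 4 arrays, and the p-values measure the spread between RNA samples and arrays together.

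Most of the small ratios lay on 1 side. The fitted ratio was below 0 in 36 of the 44 genes (background 50.7%), and the mean of 4 arrays was below 0 in 36 as well (background 50.1%). The median ratio of the 44 was -0.12 and that of all genes was 0.00, while the 95% interval of a member reached a median of 0.63 to either side of its ratio. On replicates 1 to 4 the median of the 44 was -0.14, -0.08, -0.06 and -0.21. It was below 0 with cKO in either dye, as the plot of cumulative distributions shows. In single arrays the members below 0 numbered 31, 29, 27 and 28, on backgrounds of 50.0%, 48.3%, 49.7% and 49.5%. Ratios below 0 on all 4 arrays were found in 9 members (background 5.72%), namely Mcm3, Mcm4, Mcm7, Cdc6, Rfc4, Pola1, Tyms, Tk1 and E2f1. Ratios above 0 on all 4 were found in 0 members (background 5.92%). Without replicate 1 the fitted ratio was below 0 in 34 members (background 49.5%) and the median was -0.15. On the 3 arrays left 13 members were below 0 throughout (background 11.7%). With the dye-flip columns turned, 24 members (54.5%) were below 0, near the background of 50.5%. Their median was then -0.02, and that of all genes was -0.01.

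**Figure D1:**
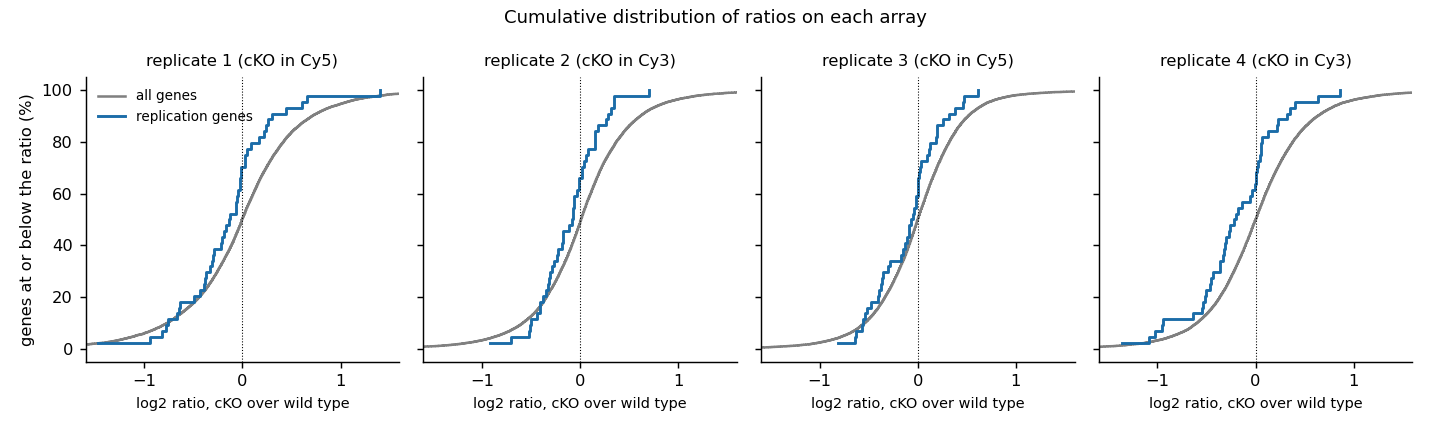
Cumulative distribution of log2 ratios (cKO over wild type, x axis, shown from -1.6 to 1.6) on each array, for all 19909 genes (grey) and the 44 replication genes (blue); the y axis is the percentage of genes at or below a ratio. The blue curve crosses 50% to the left of 0 on each array, at medians of -0.14, -0.08, -0.06 and -0.21.

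The 6 subunits of the MCM helicase, Mcm2 to Mcm7, form the ring that is loaded at origins and unwinds the template. Mcm7 had ratios of -0.945, -0.52, -0.07 and -0.27 on replicates 1 to 4. It lay below 0 on every array, lowest on replicate 1. The mean over the arrays was -0.45 ± 0.38 (SD, n = 4 arrays), and the fitted ratio was -0.51 ± 0.25 (SE; limma p 0.0916, adjusted p 1). Mcm4 had ratios of -0.01, -0.915, -0.405 and -0.135, so that replicate 2 was lowest and replicate 1 was at about 0. Its fitted ratio was -0.44 ± 0.25 (SE; limma p 0.122). Mcm3 had -0.05, -0.01, -0.54 and -0.33, below 0 throughout but close to it on the first 2 arrays, with a fitted ratio of -0.20 ± 0.21 (SE).

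The other MCM subunits lay on both sides of 0. Mcm2 had -0.14, 0.31, -0.09 and -0.94, and its fitted ratio of 0.03 leaves out the low value of replicate 4. Mcm6 had -0.22, -0.07, 0.11 and -0.55, and Mcm5, the least variable of the 6, had 0.09, -0.03, -0.30 and 0.05. As a group the MCM subunits had means of -0.21, -0.21, -0.22 and -0.36 on the 4 arrays, so the group mean was nearly equal on replicates 1 to 3 while single subunits were not. Of the 6, 5 had a fitted ratio below 0 (6 without replicate 1), and the median was -0.14.

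**Figure D2:**
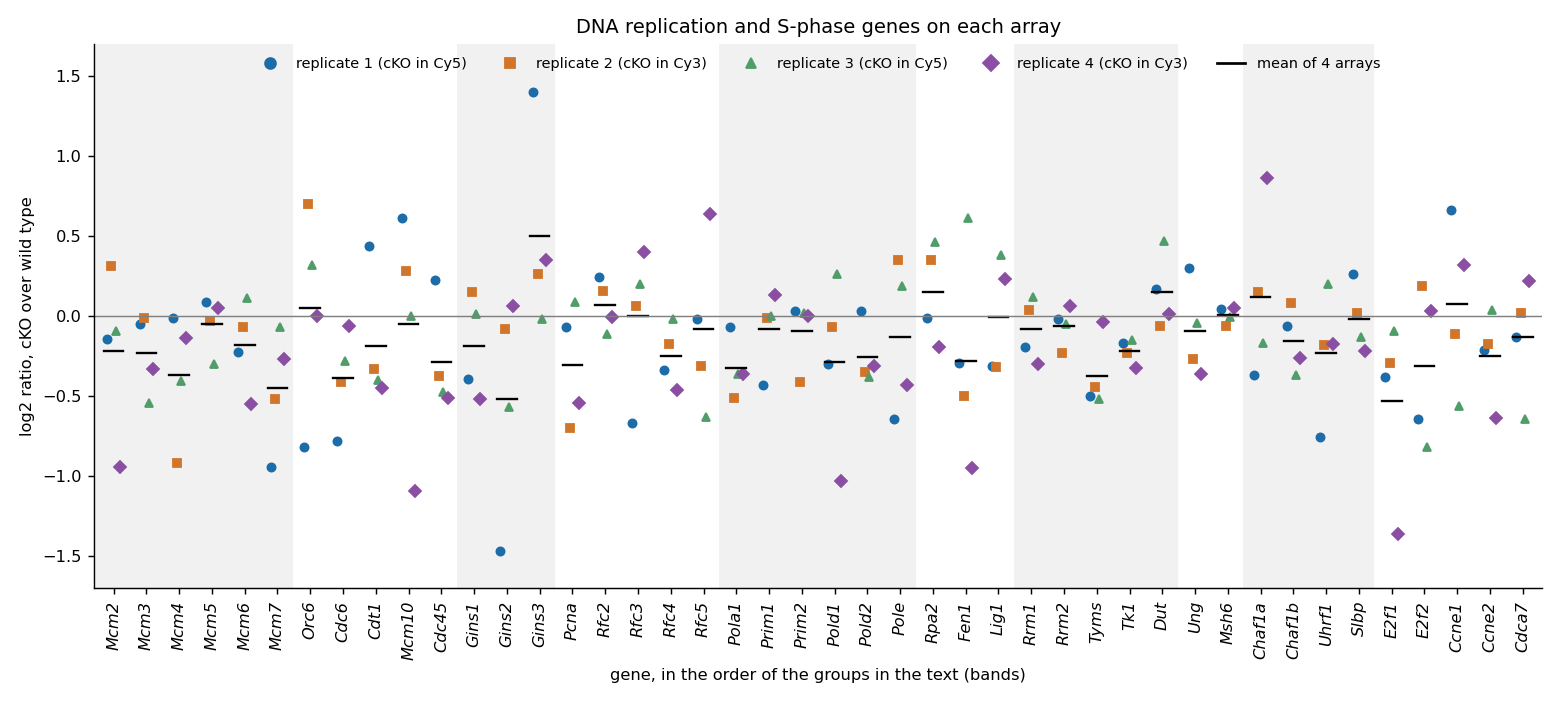
Log2 ratio of cKO over wild type (y axis) of each of the 44 genes (x axis, banded by the functional groups of the text) on the 4 arrays, with the mean of 4 arrays as a black bar. Most bars lie slightly below 0, while the arrays of a gene spread over a median SD of 0.33.

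Loading of the MCM ring is prepared by the origin recognition complex, of which Orc6 is a subunit, together with Cdc6 and Cdt1. Cdc6 had ratios of -0.78, -0.41, -0.28 and -0.06, all below 0, with a mean of -0.39 ± 0.30 (SD, n = 4 arrays) and a fitted ratio of -0.49 ± 0.26 (SE; limma p 0.112, adjusted p 1). Cdt1 behaved differently, with 0.44 on replicate 1 and -0.33, -0.40 and -0.45 on the others. Orc6 ranged from -0.82 on replicate 1 to 0.70 on replicate 2 and gave a fitted ratio of 0.07 ± 0.34 (SE).

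Cdc45 and Mcm10 act at the next step, when the loaded ring is turned into an active helicase. Cdc45 had 0.225, -0.375, -0.475 and -0.51, below 0 on all arrays but the first. Mcm10 had the widest spread of all 44 genes, with 0.61, 0.28, 0.00 and -1.09 and an SD of 0.74. Its fitted ratio of 0.30 ± 0.52 (SE) thus had the opposite sign to the mean of its 4 arrays, -0.05. Of these 5 licensing and activation genes 3 had a fitted ratio below 0 (4 without replicate 1, when the median went from -0.10 to -0.28).

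The GINS complex joins Cdc45 and the MCM ring in the active helicase, and its 3 measured genes did not move together. Gins2 had the lowest fitted ratio of all members, -0.71 ± 0.48 (SE; limma p 0.19), from values of -1.47, -0.08, -0.57 and 0.06. Gins3 had the highest, 0.55 ± 0.34 (SE; limma p 0.158), from 1.4, 0.26, -0.02 and 0.35. Replicate 1 was the extreme array of both genes, in opposite directions. Without it the fitted ratio was -0.18 for Gins2 and 0.21 for Gins3, and the lowest and highest members were Mcm4 at -0.55 and Orc6 at 0.39. Gins1 lay between them at -0.39, 0.15, 0.01 and -0.52. Each of these 3 genes was measured by 1 feature that the annotation lists under a clone name. The SD over the arrays was 0.32 to 0.69, and differences between the 3 genes were not tested.

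Pcna is the ring-shaped clamp that holds polymerases on the template, and the RFC complex loads it. The single Pcna feature gave -0.07, -0.70, 0.09 and -0.54. It was clearly below 0 only on the 2 arrays with cKO in Cy3, and the fitted ratio was -0.23 ± 0.30 (SE; limma p 0.48). Among the clamp loader genes, Rfc4 lay below 0 on all arrays at -0.335, -0.175, -0.02 and -0.46, with a fitted ratio of -0.18 ± 0.22 (SE; limma p 0.451). Of its 2 features, one had -1.15, -0.01, -0.19 and -0.66. The other had 0.48, -0.34, 0.15 and -0.26, so only the average was below 0 throughout in that case. Rfc5 had the lowest p of the group (limma p 0.444) at a fitted ratio of -0.32 ± 0.39 (SE), although replicate 4 read 0.635. Without replicate 3 its fitted ratio was 0.04. Rfc2 and Rfc3 had fitted ratios of 0.10 and -0.14, and each had arrays on both sides of 0. Of the 5 clamp and loader genes 4 had a fitted ratio below 0 (3 without replicate 1).

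Polymerase alpha and primase start each new strand, polymerase delta extends the lagging strand and polymerase epsilon the leading strand. Pola1, the catalytic subunit of polymerase alpha, had ratios of -0.07, -0.51, -0.36 and -0.36, so that 3 arrays lay close together below 0. Its mean was -0.33 ± 0.18 (SD, n = 4 arrays) and its fitted ratio -0.31 ± 0.21 (SE; limma p 0.188, adjusted p 1). Pold2, an accessory subunit of polymerase delta, had 0.03, -0.35, -0.38 and -0.31, a pattern much like that of Pola1. The catalytic subunit gene Pold1 did not follow it, with -0.30, -0.07, 0.26 and -1.03.

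For Pole, the catalytic subunit of polymerase epsilon, 2 arrays lay above 0 and 2 below, from -0.64 to 0.35. The primase genes were near 0, with Prim1 at -0.43, -0.01, 0.00 and 0.13 and Prim2 at 0.03, -0.41, 0.02 and 0.00. All 6 polymerase and primase genes had a fitted ratio below 0, from -0.31 to -0.03, with a median of -0.13. Without replicate 1 this held for 4 of the 6, as Prim1 was at 0.03 and Pole at 0.08, and the median was -0.21. With dye-flip columns turned it held for 2 of the 6.

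**Figure D3:**
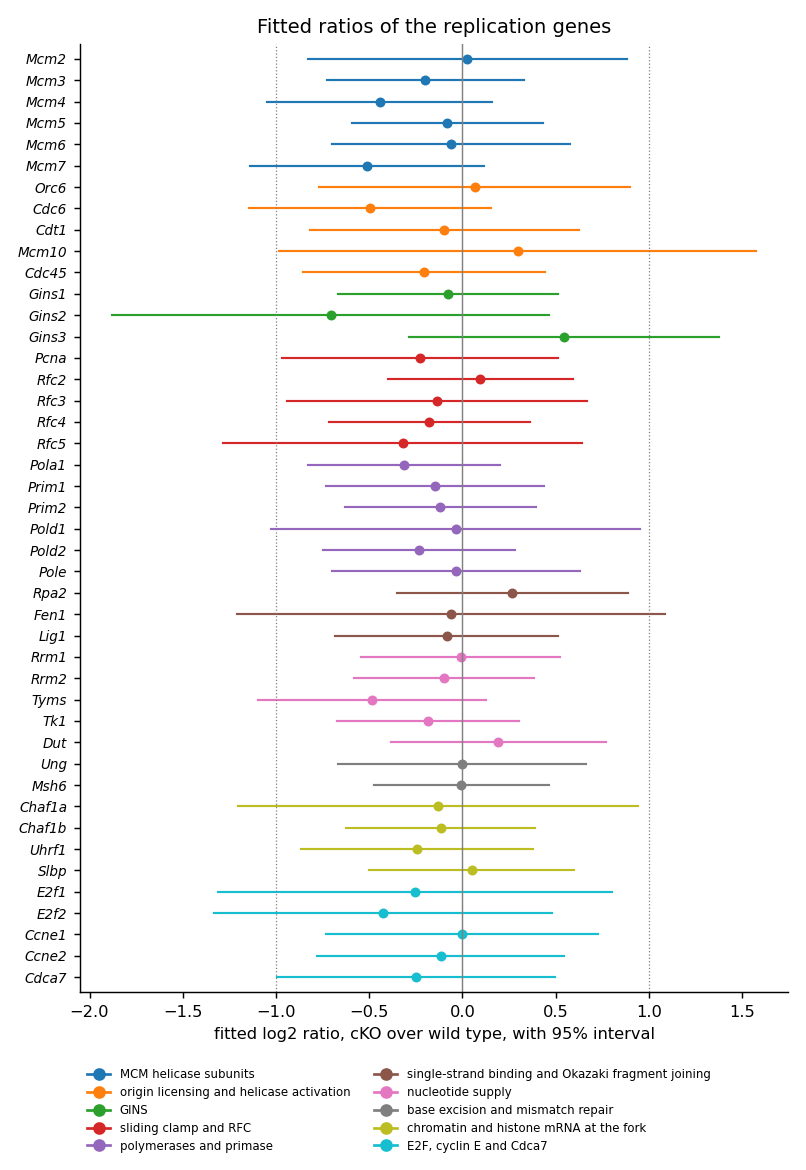
Fitted log2 ratio of cKO over wild type (dots) with its 95% interval from limma (lines) for the 44 genes, coloured by functional group; dotted lines mark a 2-fold difference in either direction. Every interval includes 0, and 31 of the 44 lie wholly within 2-fold.

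The genes that protect single strands and join Okazaki fragments had no common sign. Rpa2, a subunit of the single-strand binding protein RPA, had -0.01, 0.35, 0.465 and -0.195 and a fitted ratio of 0.27 ± 0.25 (SE; limma p 0.329). The flap endonuclease gene Fen1 ranged from -0.95 on replicate 4 to 0.61 on replicate 3. The ligase gene Lig1 had -0.31, -0.32, 0.38 and 0.23. On replicate 3 all 3 genes were above 0, with a group mean of 0.485, and on each other array the group mean was below 0.

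Deoxynucleotides for the new strands come from ribonucleotide reductase (Rrm1 and Rrm2), thymidylate synthase (Tyms), thymidine kinase (Tk1) and dUTPase (Dut). Tyms had ratios of -0.4975, -0.44, -0.52 and -0.035, which are nearly equal on 3 arrays and about 0 on replicate 4. Its mean was -0.37 ± 0.23 (SD, n = 4 arrays) and its fitted ratio -0.49 ± 0.25 (SE; limma p 0.0999, adjusted p 1). Without replicate 4 its unadjusted limma p was 0.0356 and its adjusted p 0.981. It was then the 1 member of 44 with an unadjusted p under 0.05, where 934 of all 19909 genes had one. Tk1 had -0.17, -0.23, -0.15 and -0.32, one of the narrowest spreads of the members (SD 0.08), with a fitted ratio of -0.18 ± 0.20 (SE; limma p 0.391).

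The reductase genes lay close to 0. Rrm1, the large subunit, had -0.19, 0.04, 0.12 and -0.30. Rrm2, the small subunit, was averaged over 4 features and had -0.02, -0.23, -0.05 and 0.07. Dut had 0.17, -0.06, 0.47 and 0.01 and was the only nucleotide gene with a fitted ratio above 0, at 0.19 ± 0.23 (SE). The lower ratios in this group thus belonged to the thymidine enzymes Tyms and Tk1, whose intervals of -1.10 to 0.13 and -0.67 to 0.30 overlap those of Rrm1 (-0.54 to 0.52) and Rrm2 (-0.58 to 0.38).

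The repair genes that act on newly made strands had ratios near 0. Msh6, a mismatch recognition subunit, had 0.05, -0.06, 0.00 and 0.05 over 3 features, the smallest spread of all members. The uracil glycosylase gene Ung had 0.30, -0.27, -0.04 and -0.36. Their fitted ratios were -0.01 ± 0.19 and 0.00 ± 0.27 (SE), so that their place among the 36 genes below 0 has no weight. The same holds for Ccne1, and for Rrm1 (-0.01 ± 0.22), Pole (-0.03 ± 0.27) and Pold1 (-0.04 ± 0.40). For the rest of the 36 the 95% interval included 0 as well.

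Behind the fork, chromatin assembly factor 1 (Chaf1a and Chaf1b) deposits histones, Uhrf1 recruits the maintenance methyltransferase, and Slbp processes the messages of replication-dependent histones. Uhrf1 had -0.755, -0.18, 0.20 and -0.175 and a fitted ratio of -0.25 ± 0.25 (SE; limma p 0.37). The ratios of the 2 Chaf1 genes overlapped, with Chaf1a from -0.37 to 0.86 and Chaf1b from -0.37 to 0.08. The high end of Chaf1a came from replicate 4 alone. Slbp had 0.26, 0.02, -0.13 and -0.22 and a fitted ratio of 0.05.

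Entry into S phase is governed by E2F factors and cyclins E. E2f1, an activating E2F factor, had -0.38, -0.29, -0.09 and -1.36, below 0 throughout but with 1 array far below the rest. Its mean was -0.53 ± 0.57 (SD, n = 4 arrays), whereas the fitted ratio without that array's weight was -0.25 ± 0.43 (SE; limma p 0.576). E2f2 separated by dye, with -0.64 and -0.82 where cKO was in Cy5 and 0.19 and 0.03 where it was in Cy3. Its fitted ratio was -0.42 ± 0.37 (SE; limma p 0.293), and a dye term had an unadjusted limma p of 0.0395, where 5.09% of all genes had one under 0.05. The fitted ratio of E2f2 was -0.14 without replicate 1, -0.73 without replicate 2, -0.10 without replicate 3 and -0.12 with the median over its features. Ccne1 and Ccne2 encode the cyclins E that activate Cdk2 at the G1 to S transition. Ccne1 ranged from -0.56 to 0.66, while Ccne2 had -0.21, -0.175, 0.035 and -0.635. Cdca7, which recruits a nucleosome remodeller needed for DNA methylation, had -0.13, 0.02, -0.64 and 0.22.

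Features of the same gene often differed, and whether through the probe or its annotation was not tested. Of the 74 features, 55 (74.3%) had a mean over the 4 arrays below 0, against 50.5% of all named features. Below 0 on all 4 arrays were 13, against 5.41% of all named features, and above 0 on all 4 were 0. Without replicate 1 the mean was below 0 in 55 features (49.7% of all named features), and 18 lay below 0 on the 3 arrays left (11.4% of all). Among the 19 genes with several features, the feature means were all below 0 in 9, all above 0 in 2 and on both sides or at 0 in 8. In Mcm7 one feature had -0.84, -1.09, -0.31 and -0.59 while the other reached below 0 on replicate 1 only, and their means were -0.71 and -0.20. The 4 Tyms features had means from -0.61 to -0.11, all below 0. The 3 Cdc6 features were the farthest apart, from -0.67 to 0.06, and those of Tk1 ran from -0.48 to 0.09. The small spread of Tk1 between arrays therefore came from averaging features that differed. In Mcm4 both features agreed in the mean, at -0.39 and -0.34, but the first was above 0 on replicates 1 and 4, at 0.16 and 0.19. Which feature reads the right transcript, and at what intensity, could not be determined from ratios.

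**Figure D4:**
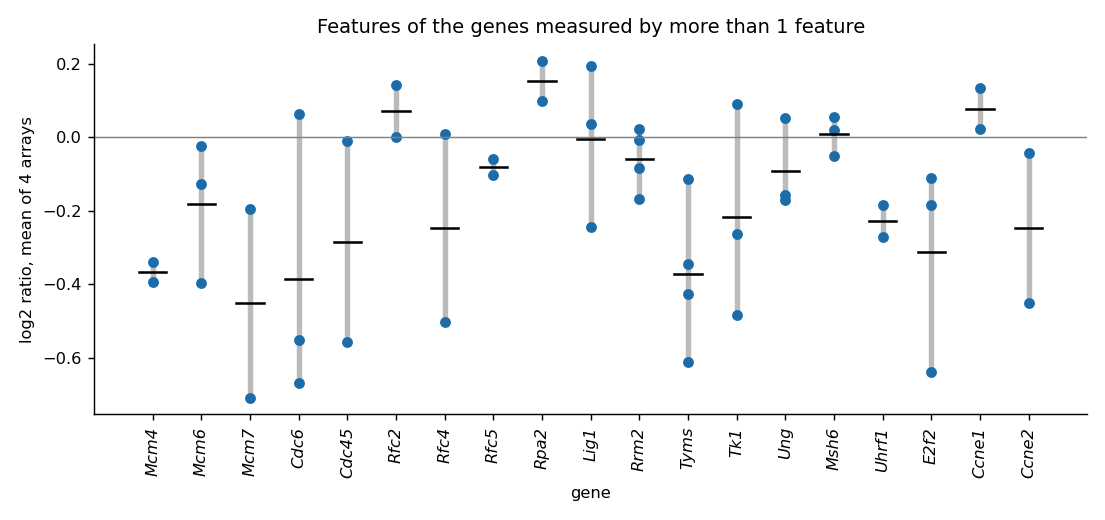
Log2 ratio of cKO over wild type as the mean of 4 arrays (y axis) for each feature (dots) of the 19 genes with more than 1 feature, with the mean over the features as a black bar and a grey line joining lowest and highest. The features of Cdc6 are farthest apart, from -0.67 to 0.06, and those of Mcm4 and Rfc5 lie close together.

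The precision sets what these arrays can say about size. The 95% intervals of 31 members lay within a 2-fold difference in either direction, or 70.5%, against 60.8% of all genes. Those of 33 lay above a 2-fold reduction, or 75.0%, against 76.4% of all genes. The 11 whose interval reached past a 2-fold reduction included Mcm4, Mcm7, Cdc6, Tyms, Gins2, E2f1 and E2f2. In this fit such a reduction was thus not excluded for the genes with the lowest ratios. The SE of these genes ran from 0.25 (Mcm4) to 0.48 (Gins2). With the arrays taken as independent it was smaller, from 0.16 (Tyms) to 0.28 (Gins2). Intervals within 1.5-fold in either direction were reached by 3 members, Rrm2, Msh6 and Rrm1 (8.97% of all genes), and by 1 member without replicate 1 (1.39% of all genes). These intervals assume the correlation of 0.5 between arrays that share RNA, where the observed correlations over all genes were 0.01 and -0.04. Whether the intervals are too wide for that reason was not tested. How far a feature stood above background could not be assessed from ratios.

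Further genes of the same processes were examined as lists. Of 42 other replication genes (among them the remaining ORC, polymerase and RPA genes) 40 were measured, and 0 passed the test. Their fitted ratios were below 0 in 23 (57.5%, background 50.7%), and in 25 without replicate 1 (62.5%, background 49.5%). The median was -0.02, and 2 lay below 0 on all 4 arrays (5.0%, background 5.72%). The lowest unadjusted limma p values belonged to the thymidylate kinase gene Dtymk, with a fitted ratio of -0.33 (p 0.193), the nuclease gene Dna2 with 0.33 (p 0.195), Orc2 with 0.60 (p 0.218) and Mtbp with -0.31 (p 0.258). On replicate 2 the median of this list was 0.09, above 0, where that of the 44 genes was -0.08.

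A second list held other chromatin and E2F genes of S phase. Of its 23 measured genes 18 were below 0 (78.3%, background 50.7%), and 16 without replicate 1 (69.6%, background 49.5%). The median was -0.11, 4 lay below 0 on all arrays (17.4%, background 5.72%) and 0 passed the test. The histone chaperone gene Asf1a had 0.095, -1.72, -1.0 and -1.14, low on all arrays but replicate 1, with a fitted ratio of -0.88 ± 0.43 (SE; limma p 0.09, adjusted p 1). Uhrf2 had a fitted ratio of -0.31 (p 0.219), E2f8 -0.45 (p 0.257) and the maintenance methyltransferase gene Dnmt1 -0.26 (p 0.273). In this list 10 of 18 genes with a promoter entry held the E2F letters.

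Genes of mitosis and of granule cell progenitors mark the dividing cells of this tissue. Of 39 mitosis genes 23 were below 0 (59.0%, background 50.7%), and 21 without replicate 1 (53.8%, background 49.5%). Their median was -0.03, with medians of -0.15, 0.09, -0.07 and -0.18 on the 4 arrays. Of 18 granule cell progenitor genes 14 were below 0 (77.8%), and also 14 without replicate 1, on the same backgrounds. Their median was -0.26, with medians of -0.38, -0.15, -0.18 and -0.38. Pax6, a transcription factor gene of these progenitors, had -0.89, -0.40, -0.49 and -0.94 (limma p 0.0402, adjusted p 1). The cyclin D2 gene Ccnd2 had -2.04, -0.32, -0.65 and -0.80 (limma p 0.0499, adjusted p 1), lowest on replicate 1. Pax6 and Ccnd2 were named for the lowest limma p of the list. Fitted ratios above 0 belonged to the progenitor genes Atoh1 (0.17), Boc (0.23), Lhx9 (0.23) and Tfap2b (0.03). By median the progenitor list was lowest on replicates 1 and 4, as were the replication genes. By mean the progenitor list was at -0.57, 0.02, -0.35 and -0.36 on replicates 1 to 4. Replicates 1 and 4 shared their wild-type RNA, and over the 44 genes their ratios correlated at 0.0003. The part of progenitor number in the ratios of the replication genes was not tested. No test of a difference between lists was made, so whether any of this is particular to the replication genes is not known.

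**Figure D5:**
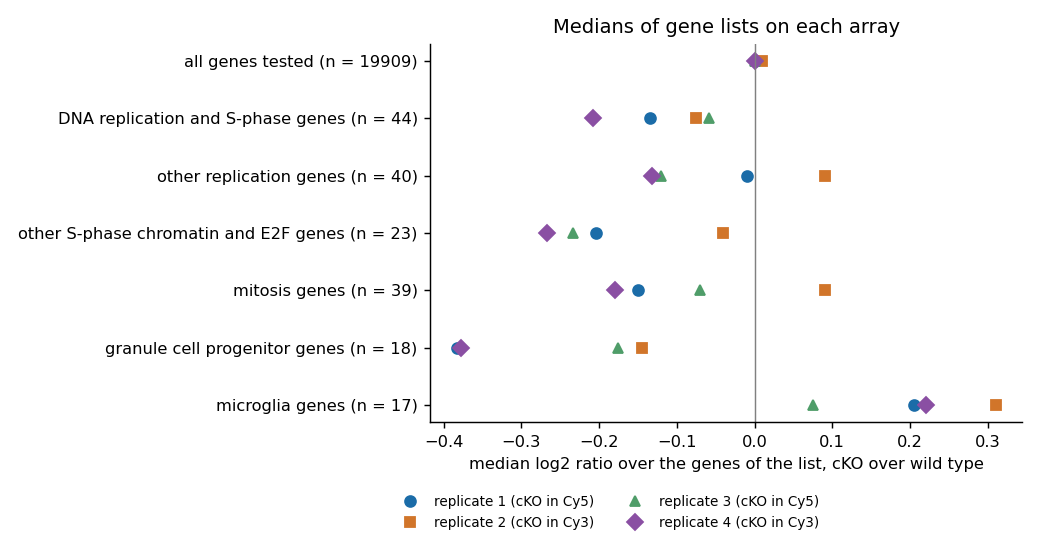
Median log2 ratio of cKO over wild type (x axis) over the genes of each list (rows, with the number of genes measured) on the 4 arrays. The medians of the replication genes lie between -0.21 and -0.06, those of the granule cell progenitor genes between -0.38 and -0.15, and those of the microglia genes between 0.08 and 0.31.

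Markers of other cells that the tissue could hold were read in the same way. Over all genes 50.7% of fitted ratios were below 0, and 49.5% without replicate 1. Microglia genes had medians of 0.21, 0.31, 0.08 and 0.22, with 5 of 17 fitted ratios below 0 (3 without replicate 1). Choroid plexus genes had medians of -0.02, -0.05, 0.03 and 0.57, with 6 of 12 below 0 (4 without replicate 1). Meningeal and fibroblast genes had a fitted median of 0.04 over 13 genes, erythroid genes -0.08 over 7 and endothelial genes 0.02 over 11. Without replicate 1 these medians were -0.02, 0.34 and -0.05. The 6 hindbrain Hox genes were all above 0 in the fit, and 5 of them were below 0 without replicate 1. The part of these cells in the ratios of the replication genes was not tested.

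Members with and without the E2F letters were set side by side as a description. The 9 members that held them had a median fitted ratio of -0.245, with 8 below 0, and the 28 without had -0.10, with 22 below 0. The order of the medians turned without replicate 1, when they were -0.11 with the letters (7 below 0) and -0.15 without (22 below 0). Gins3, with the highest ratio of all members, was the one of the 9 above 0. Over all genes on the arrays with a promoter entry, the 457 with the letters had a median of -0.04 and 58.0% below 0, and the 15149 without had a median of 0.00 and 50.6% below 0. The 457 include the 9 members. Genes are not independent replicates, and no test was made of this difference.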

How the data were processed

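Per the labels, Trizol was used for RNA and a Genisphere dendrimer kit for labelling. The values the authors deposited are ratios on a log scale, taken as log2. How background was corrected and arrays normalized is not given in the sources used here. Deposited medians were between -0.02 and 0.01. Without scanner intensities, dim features could not be filtered. The probe table gave 1 symbol to 30457 of 38880 features; older symbols were joined to current names through RefSeq synonyms (GRCm38.p6, names only). Each array was centred on its median, and features of a gene were averaged. Columns were taken as already cKO over wild type.

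Genes were fitted with limma 3.58.1 (lmFit, eBayes, intercept alone, two-sided) in R 4.3.3 with generalised least squares, arrays sharing RNA correlated at 0.5, which gives replicate 4 a weight of 0 in the estimate. Benjamini-Hochberg adjustment ran over 19909 genes, at a threshold of 0.05. The script was tested on simulated data. Named genes were all members by complex, in full for the member of lowest p in each complex and those with 1 sign on all arrays, and the 4 of lowest p in the other pathway lists. Also named were further polymerase and GINS subunits and the granule cell progenitor genes with fitted ratios above 0. Members and lists were chosen with earlier results of these data known. Alternatives were independent arrays, a dye term, turned dye-flip columns, no centring, scaling, the median over features, probe-table symbols, and leaving out each array.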

Additional observations from a re-analysis of the deposited data

Results flagged for a closer look

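In 5 of 57 values examined over the 4 arrays, 1 array lay far from the other 3, where chance flags about 1 in 20 (2.85 values). Cdt1 was 0.44 on replicate 1, and on the other 3 arrays it was -0.45 to -0.33. Prim2 was -0.41 on replicate 2 and between 0.00 and 0.03 elsewhere. Pold2 was 0.03 on replicate 1, against -0.38 to -0.31. Tyms was -0.035 on replicate 4, against -0.52 to -0.44. The mean of the MCM subunits was -0.36 on replicate 4, against -0.22 to -0.21.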

How the results depend on the processing

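No setting listed here called a gene (0 by limma, adjusted p under 0.05), with 310 genes at an unadjusted p under 0.05 in the fit reported and 995 with independent arrays. The count of members below 0 was 36 and was 24 with dye-flip columns turned (background 50.5%) and 30 to 36 in the other alternatives. Their median of -0.12 became -0.0217 with dye-flip columns turned, and lay between -0.15 and -0.12 when an array was left out. The fit was already paired, because every array compares the genotypes directly and its ratios were fitted. Signs of single members changed as follows, also in Mcm4, Pola1, Rfc5 and Pcna, whose fitted ratios were -0.44, -0.31, -0.32 and -0.23; the cause was not tested.
With independent arrays, and equally with a dye term, the ratios were -0.21 for Mcm2, -0.05 for Mcm10, 0.0083 for Msh6, 0.12 for Chaf1a, -0.018 for Slbp and 0.077 for Ccne1. With dye-flip columns turned they were -0.18 for Mcm2, 0.17 for Mcm4, -0.40 for Orc6, 0.12 for Cdt1, 0.042 for Cdc45, 0.24 for Pcna, -0.0067 for Rfc2, 0.027 for Pola1, 0.15 for Prim2, 0.01 for Pold1, 0.27 for Fen1, 0.13 for Lig1, 0.055 for Rrm2, 0.18 for Ung, 0.036 for Msh6 and 0.07 for Ccne1. Without centring they were 0.0044 for Ung and 0.0033 for Ccne1. With scaled arrays they were 0.0048 for Pole and 0.0028 for Rrm1. With the median over features they were 0.077 for Mcm6 and 0.063 for Msh6. Leaving out 1 array moved Mcm2 from -0.18 to 0.027, Mcm10 from -0.19 to 0.30, Rfc3 from -0.23 to 0.20, Prim1 from -0.21 to 0.033, Pole from -0.23 to 0.081, Lig1 from -0.16 to 0.037, Chaf1a from -0.27 to 0.26, Slbp from -0.091 to 0.065, Orc6 from -0.25 to 0.39, Cdt1 from -0.38 to 0.02. It also moved Pcna from -0.47 to 0.01, Prim2 from -0.17 to 0.025, Fen1 from -0.57 to 0.16, Ung from -0.23 to 0.13, Msh6 from -0.013 to 0.022, Ccne1 from -0.12 to 0.23, Mcm5 from -0.10 to 0.027, Rfc5 from -0.33 to 0.043 and Cdca7 from -0.39 to 0.034. The members below 0 on every array numbered 9 with all 4 arrays and 11 to 15 on 3 arrays, on backgrounds of 11.4% to 11.8%, a count chosen after seeing the data and larger by construction with fewer arrays. With probe-table symbols alone 37 members were found, 32 of them below 0. Depth of signal over background could not be assessed from ratios.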
